A study of Homo sapiens with 6 samples.

Results

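The heat shock response was examined through 10 genes: the transcription factor HSF1 and the heat shock protein genes HSPA1A, HSPA1B, HSPA8, HSPH1, HSPD1, HSPE1, HSP90AA1, DNAJB1 and HSPB1. They were chosen by name, and all 10 were found by symbol among the 61552 genes listed and passed the filter on low counts with 15063 genes in all. The cells were NCI-H520, an established human line of lung squamous cell carcinoma labelled as wild type, grown with 15% fetal bovine serum. One group of 3 libraries received phosphate-buffered saline (PBS) for 48 h and the other group of 3 libraries cisplatin at 2 µM, a DNA-crosslinking platinum compound, for the same time. The study concerns the transcription factor SOX2 and drug resistance, and the comparison asks how expression differs after the drug. All libraries come from 1 line. Whether replicates were separate cultures is not in the labels, and each p-value is therefore about the scatter among 6 libraries, part or all of which may be technical.

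Heat shock proteins are molecular chaperones that keep other proteins folded. When unfolded proteins accumulate, HSF1 forms trimers, enters the nucleus and binds heat shock elements, which are inverted repeats of the unit GAA in the promoters of chaperone genes. HSP70 proteins work with J-domain partners that deliver clients and with exchange factors that release nucleotide, HSP90 matures kinases and receptors, and the mitochondrial chaperonin folds imported proteins. Tumour cells often hold high levels of these chaperones.

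Under cisplatin the heat shock genes did not move together. The stress-inducible HSP70 genes HSPA1A and HSPA1B fell to 0.762 and 0.631 of their PBS level, the mitochondrial chaperonin subunit HSPD1 to 0.802, and the HSP70 exchange factor HSPH1 to 0.851. The small heat shock protein gene HSPB1 rose 1.59-fold. HSF1, HSPA8, HSPE1, HSP90AA1 and DNAJB1 did not pass the test. In all, 4 of the 10 genes were lower and 1 was higher at an adjusted p under 0.05 in edgeR's quasi-likelihood test, where 19.3% of all tested genes were lower and 18.9% higher. The 5 genes called of 10 stand beside 38.2% over all genes. The median log2 fold change was -0.05 over the 10 genes and 0.00 over all tested genes.

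Total expected counts ran from 9121180 to 16724285 per library. Mitochondrially encoded genes took 4.15% to 6.05% of the counts under PBS and 3.26% to 4.13% under cisplatin, so these ranges did not overlap. Of 11 squamous and lung lineage markers, 7 were tested and 3 were higher under cisplatin: the simple keratins KRT8 (0.39) and KRT18 (0.28) and the lung factor NKX2-1 (0.81). SOX2 was abundant at 309 and 323 mean CPM (counts scaled to a common library size by TMM), the basal keratin KRT5 was near 5.42 and 4.72 CPM, TP63 had 0 to 3 counts per library, and DSG3 was at 0 in every library. PTPRC, CD3E, MS4A1 and TYROBP of 7 leukocyte markers, COL3A1 of 7 fibroblast markers and TEK of 6 endothelial markers were at 0 in every library. Called members of these lists were LYZ (1.84, 6 to 17 counts under PBS and 37 to 59 under cisplatin), CD14 (-0.98, 5 to 15 counts over all libraries), COL1A1 (0.82) and THY1 (1.49, 5 to 19 counts). The summed TPM (a level per transcript length, as deposited) of the fibroblast markers was 5.54 to 6.32 under PBS and 6.95 to 8.79 under cisplatin, and that of the leukocyte markers 1.76 to 2.26 and 3.31 to 4.21. Their part in the results was not tested. In bulk RNA, fewer cells holding an mRNA and less of it per cell cannot be told apart.

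The sequences upstream of these genes are shown first because HSF1 recognises its target genes by heat shock elements. In the RefSeq promoter table (GRCh38.p14), 9 of the 10 genes had an entry, and HSF1 did not. The 250 bases before each start site were searched for 2 adjacent units, written GAANNTTC or TTCNNGAA, each of which reads the same on both strands. A 3-unit match was a run in which both 2-unit forms overlap by 1 unit. The 9 genes have 13 entries, 1 for each start site. A 2-unit match was found in 7 of the 13 entries, 1 for each of 7 genes, and in 11.6% of the 35116 promoters of the table. A 3-unit match was found in 3 of the 13 entries (of HSPA8, HSPD1 and HSP90AA1) and in 0.441% of promoters. HSPD1, HSP90AA1 and DNAJB1 have more than 1 entry, and each had its match at the second start site and none at any other. All 250 bases before the second HSPD1 start site lie in annotated exons of HSPD1 or HSPE1. The other stretches with a match also held exonic bases. There were 199 for HSPA8, 147 for HSP90AA1, 129 for HSPB1, 79 for HSPA1A, 23 for DNAJB1 and 3 for HSPA1B. The matches stand in 30 bases each, 5′ to 3′ on the gene's strand, with the matching units in capitals.
HSPA1A (chr6:31815426-31815455, plus strand): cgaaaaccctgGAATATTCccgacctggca
HSPA1B (chr6:31827622-31827651, plus strand): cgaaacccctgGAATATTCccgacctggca
HSPA8, distal (chr11:123062345-123062374, minus strand): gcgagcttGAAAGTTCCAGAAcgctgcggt
HSPA8, proximal (chr11:123062170-123062199, minus strand): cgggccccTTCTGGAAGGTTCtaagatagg
HSPD1 (chr2:197500061-197500090, minus strand): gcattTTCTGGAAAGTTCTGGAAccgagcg
HSP90AA1 (chr14:102087104-102087133, minus strand): cTTCCGGAAGGTTCgggaggcTTCTGGAAa
DNAJB1, distal (chr19:14518456-14518485, minus strand): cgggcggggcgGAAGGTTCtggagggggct
DNAJB1, proximal (chr19:14518426-14518455, minus strand): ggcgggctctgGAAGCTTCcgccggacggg
HSPB1 (chr7:76302480-76302509, plus strand): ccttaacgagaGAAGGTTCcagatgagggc

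HSPA1A and HSPA1B carried the same match, 98 and 97 bases before their start sites. The proximal match of HSPA8 ended 42 bases and that of DNAJB1 39 bases before the start. No match was found for HSPH1 or HSPE1 in this window. The match printed for HSPD1 also lies before the HSPE1 start site (197500379), but outside the bases searched for HSPE1 (197500129 to 197500378). Matches were found among the genes that fell, upstream of the gene that rose, and among the genes that did not pass the test. Since HSPA1A and HSPA1B moved most among the genes that fell, and DNAJB1 among the least of all, their upstream bases are printed as far as the first annotated exon base, with the matching units again in capitals.
HSPA1A (chr6:31815293-31815463, plus strand): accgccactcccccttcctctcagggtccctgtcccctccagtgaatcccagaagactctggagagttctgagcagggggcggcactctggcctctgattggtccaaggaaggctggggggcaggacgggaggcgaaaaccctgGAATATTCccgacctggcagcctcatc
HSPA1B (chr6:31827488-31827734, plus strand): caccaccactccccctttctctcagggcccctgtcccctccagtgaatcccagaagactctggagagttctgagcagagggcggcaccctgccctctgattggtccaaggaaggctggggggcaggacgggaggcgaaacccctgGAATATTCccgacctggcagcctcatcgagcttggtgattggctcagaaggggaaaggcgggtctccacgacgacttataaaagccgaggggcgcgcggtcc
DNAJB1 (chr19:14518421-14518647, minus strand): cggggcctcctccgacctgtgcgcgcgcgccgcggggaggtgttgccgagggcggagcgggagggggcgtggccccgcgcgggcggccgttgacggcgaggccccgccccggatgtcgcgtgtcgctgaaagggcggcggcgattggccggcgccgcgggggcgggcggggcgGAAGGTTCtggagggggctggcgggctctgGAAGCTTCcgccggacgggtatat

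Over the 250 bases before the start, HSPA1A and HSPA1B were 93.6% identical, with 14 mismatches and 2 gap positions. In those 250 bases each also held 1 TATAAA element (searched as TATAAA or TTTATA, in 10.7% of all promoters). Each held 2 CCAAT boxes (CCAAT or ATTGG, in 32.0% of all promoters). For HSPA1A the TATAAA element and 1 CCAAT box lie past the shorter stretch printed above. These matches describe letters only.

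Per transcript length, HSP90AA1 was the most abundant of the 10 under PBS at a mean of 1463 TPM, followed by HSPA8 (1059), HSPD1 (884), HSPE1 (668), DNAJB1 (174), HSPH1 (90.6), HSF1 (85.5), HSPA1A (66.8), HSPA1B (58.6) and HSPB1 (36.5). The PBS libraries of neighbours in this order did not overlap, except those of HSPH1 with HSF1 and of HSPA1A with HSPA1B. Under cisplatin, HSPB1 at 56.0 TPM stood above HSPA1A at 47.3 and HSPA1B at 34.5 taken singly, with no overlap between any of the 3. Summed, HSPA1A and HSPA1B had 78.6 to 86.7 TPM under cisplatin, above HSPB1 (50.8 to 65.0) in every library. HSPD1 at 665 TPM and HSPE1 at 609 overlapped under cisplatin, as did HSF1 and HSPH1. The 10 genes together held 0.447%, 0.447% and 0.482% of TPM under PBS and 0.425%, 0.429% and 0.414% under cisplatin. On CPM those shares were 0.816%, 0.847% and 0.782% against 0.787%, 0.786% and 0.797%, and they overlapped. HSP90AA1, HSPA8 and HSPD1 made up 73.0% to 76.0% of the summed TPM in every library.

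**Figure D1:**
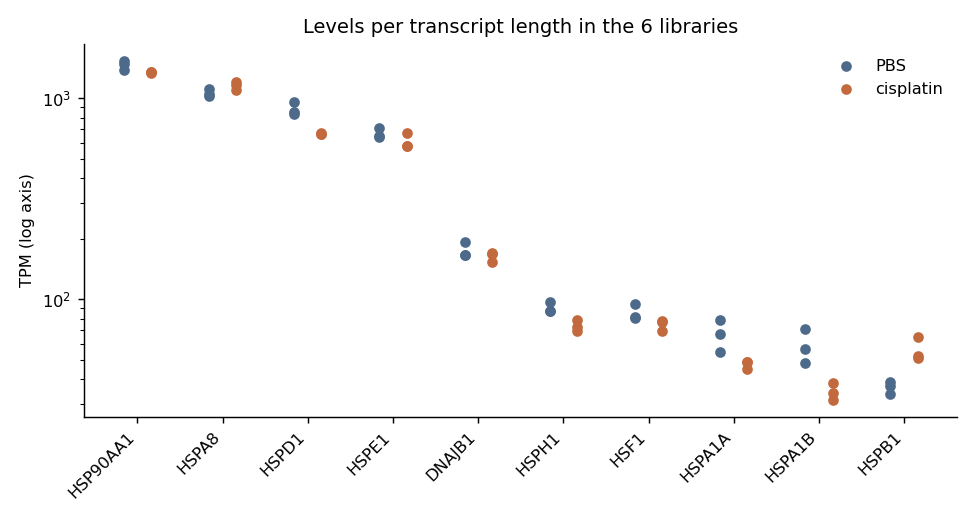
Levels of the 10 heat shock genes in TPM on a log axis, with 1 point per library and the genes ordered by their PBS mean. The order runs from HSP90AA1 at 1463 TPM to HSPB1 at 36.5 TPM under PBS. In the cisplatin libraries HSPB1 stands above HSPA1A and HSPA1B taken singly, but below their sum, which is not drawn.

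HSF1 (ENSG00000185122), the factor itself, stood at 121, 119 and 126 CPM under PBS and at 110, 111 and 123 CPM under cisplatin. The third cisplatin library lay within the PBS range, so the groups overlapped. The log2 fold change was -0.09 ± 0.07 (SE), with a 95% interval from -0.25 to 0.07 and an edgeR adjusted p of 0.380. In TPM the 3 cisplatin libraries (69.2 to 78.0) lay below the 3 PBS libraries (80.5 to 94.8), but limma on log2(TPM + 1) did not call the difference either (-0.19).

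HSPA1A and HSPA1B encode the stress-inducible HSP70 and lie close together on chromosome 6 (31815464 to 31817946 and 31827735 to 31830255 in GENCODE 29, GRCh38). HSPA1A had 133, 109 and 134 CPM under PBS and 96.0, 89.5 and 100 CPM under cisplatin. HSPA1B had 119, 101 and 128 CPM under PBS and 79.7, 71.9 and 68.6 CPM under cisplatin. In both genes every cisplatin library was below every PBS library, and the second PBS library was the lowest of its group. HSPA1A fell by 0.39 ± 0.09 on the log2 scale (edgeR adjusted p = 0.00529) and HSPA1B by 0.66 ± 0.10 (edgeR adjusted p = 3.1e-04).

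The 2 genes can exchange reads. Of the 100-base windows of HSPA1A transcripts, 67.3% also occur in HSPA1B transcripts, and 68.8% of those of HSPA1B occur in HSPA1A, so the division between them is the quantifier's estimate. A low-count transcript model on the same strand (4.49 to 17.78 counts per library) also covers 36.5% of the exonic bases of HSPA1B. Counted as 1 feature, the pair had 252, 210 and 263 CPM under PBS and 176, 161 and 169 CPM under cisplatin. No library of one group overlapped the other, and the sum fell by 0.52 ± 0.09 on the log2 scale (95% interval -0.71 to -0.33, edgeR adjusted p = 8.2e-04). HSPA1B took 47.2%, 48.2% and 48.9% of the pair's counts under PBS and 45.4%, 44.5% and 40.6% under cisplatin. These shares did not overlap, and the exact 2-sided permutation test gave p = 0.1, the smallest that 3 against 3 allow. HSPA1L, a neighbouring HSP70 gene, was not called (-0.24). HSPA6, which is strongly heat-inducible, had 5 to 13 counts per library and was not tested.

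HSPA8 (chromosome 11, 123057489 to 123063230) encodes the constitutive HSP70, also called HSC70. It had 1823, 1779 and 1701 CPM under PBS and 2055, 1987 and 1925 CPM under cisplatin. In CPM no cisplatin library was as low as the highest PBS library, as for HSPB1. In TPM the groups of HSPA8 overlapped (1023 to 1106 under PBS, 1098 to 1209 under cisplatin), while those of HSPB1 did not. In CPM, 6 of the 10 genes were without overlap between groups (49.7% of all tested genes), 2 of them higher (25.2%) and 4 lower (24.5%). The log2 fold change of 0.17 ± 0.07 did not pass (95% interval 0.01 to 0.33, edgeR adjusted p = 0.0802), while DESeq2 and limma-voom placed it just under the threshold (adjusted p = 0.0498 and 0.0476, with up to 0.251 over the alternatives). None of the 100-base windows of its transcripts occurred in another gene's transcripts.

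HSPH1 (chromosome 13, 31134974 to 31162388), the HSP110 exchange factor of HSP70, had 248, 264 and 245 CPM under PBS and 205, 211 and 227 CPM under cisplatin. The groups did not overlap, although the highest cisplatin library came close to the lowest PBS library. It fell by 0.23 ± 0.07 on the log2 scale (edgeR adjusted p = 0.0233). Leaving out PBS replicate 2 ended that call (-0.19, adjusted p = 0.0599), and so did leaving out cisplatin replicate 1 (-0.20, 0.123) or replicate 2 (-0.21, 0.0990). It held neither with a correction for transcript length (-0.16, 0.0991) nor on TPM in limma (-0.30, 0.0504). Over all alternatives the lowest adjusted p was 0.0161.

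DNAJB1 (chromosome 19, 14514770 to 14529770), the J-domain partner that delivers clients to the inducible HSP70, had 303, 308 and 304 CPM under PBS and 307, 309 and 292 CPM under cisplatin. Relative to its mean, it varied least of the 10 between PBS libraries in CPM, with a standard deviation of 2.48 CPM around 305. In TPM its standard deviation under PBS was 15.7 around 174. The log2 fold change was -0.01 ± 0.07 with a 95% interval of -0.16 to 0.13, and its sign changed with the scaling (0.01 with upper quartile or total counts). The 95% interval of HSPA1A plus HSPA1B, -0.71 to -0.33, and that of DNAJB1 did not overlap, though the difference between the 2 changes was not tested.

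**Figure D2:**
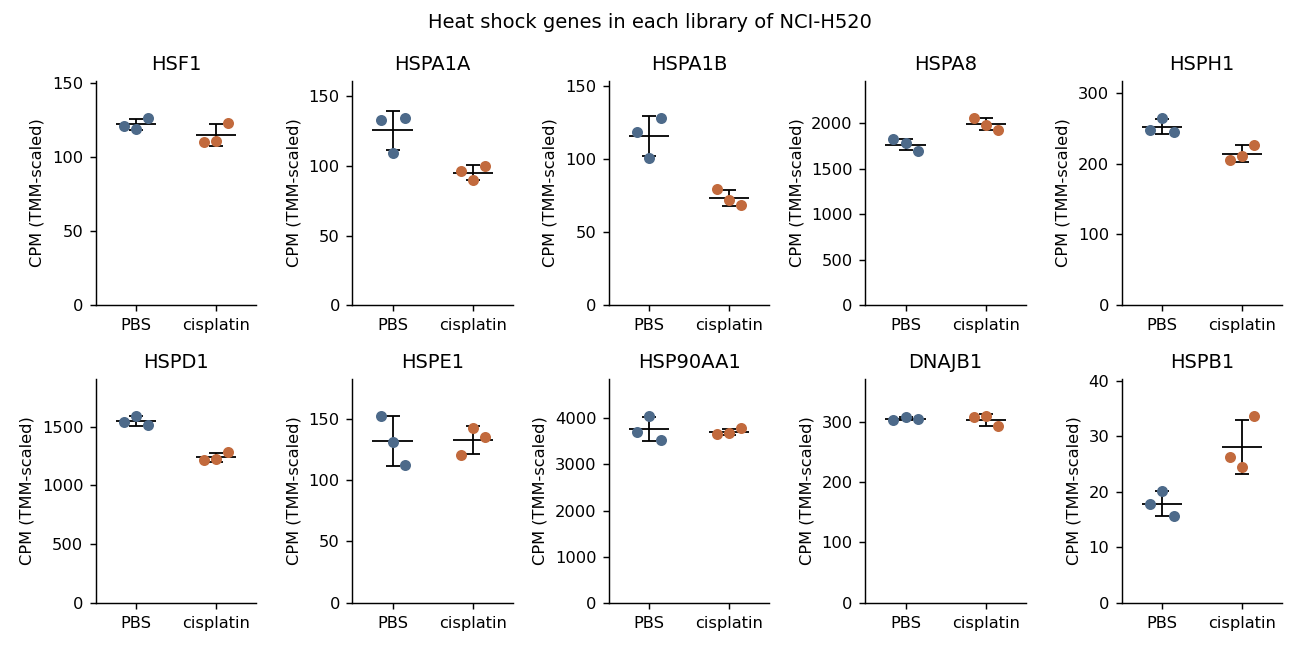
CPM of each heat shock gene in the 3 PBS and 3 cisplatin libraries, with points for libraries, a bar at the mean and whiskers of 1 SD, on axes that start at 0. Every cisplatin library lies below every PBS library for HSPA1A, HSPA1B, HSPH1 and HSPD1 and above for HSPA8 and HSPB1, while HSF1, HSPE1, HSP90AA1 and DNAJB1 overlap.

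HSP90AA1 (chromosome 14, 102080738 to 102139699), the stress-inducible HSP90 of the cytosol, had 3699, 4048 and 3540 CPM under PBS and 3660, 3684 and 3781 CPM under cisplatin. In CPM the cisplatin libraries lay inside the PBS range. In TPM they (1338 to 1356) lay below the PBS libraries (1381 to 1532), but limma on log2(TPM + 1) did not call the difference (-0.12). The log2 fold change was -0.02 ± 0.08 (95% interval -0.19 to 0.15, edgeR adjusted p = 0.855), and its sign turned with the length correction (0.03) and without PBS replicate 2 (0.04).

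HSPD1 and HSPE1 encode the HSP60 and HSP10 subunits of the mitochondrial chaperonin, a barrel and its lid. They lie head to head on chromosome 2 (197486581 to 197516737 on the minus strand and 197499994 to 197503457 on the plus strand), with the nearest RefSeq start sites 105 bases apart. HSPD1 had 1541, 1591 and 1515 CPM under PBS and 1213, 1228 and 1286 CPM under cisplatin, a wide gap beside the spread within each group. It fell by 0.32 ± 0.07 on the log2 scale (95% interval -0.47 to -0.17, edgeR adjusted p = 0.00393), and every one of the 16 alternatives called it, with adjusted p from 4.5e-05 to 0.0304.

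HSPE1 had 152, 131 and 112 CPM under PBS and 120, 142 and 135 CPM under cisplatin, with the groups overlapping fully. Its log2 fold change was 0.01 ± 0.11 (95% interval -0.22 to 0.24, edgeR adjusted p = 0.946). This value turned to -0.29 and passed with the transcript length correction (adjusted p = 0.0130), and it was -0.14 on TPM (0.296). The HSPE1 transcript, at 557 bases, is among the shortest tested. Exons of HSPD1 on the opposite strand cover 14.2% of its exonic bases, and the read-through gene HSPE1-MOB4 covers 9.7%, so its count is less certain.

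The ratio of HSPD1 to HSPE1 in TPM was 1.17, 1.33 and 1.48 under PBS and 1.15, 0.982 and 1.16 under cisplatin. Every cisplatin value was below every PBS value, by a narrow margin, with means of 1.33 ± 0.152 and 1.10 ± 0.0999 (SD, n = 3). The exact 2-sided permutation test gave p = 0.1, the smallest that this design allows. The direction was the same with any 1 library left out (differences of -0.308 to -0.156). With the transcript length correction HSPD1 was -0.35 and HSPE1 -0.29 on the log2 scale, so these 2 changes were close. The ratio was not corrected for length, and the part of the length trend in it was not tested.

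**Figure D3:**
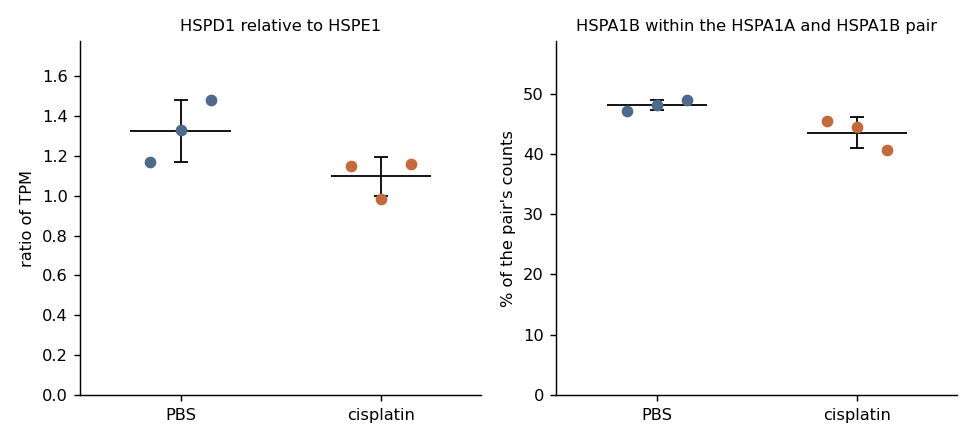
Left, the ratio of HSPD1 to HSPE1 TPM in each library, and right, the percentage of the HSPA1A and HSPA1B counts given to HSPA1B, with points for libraries, a bar at the mean and whiskers of 1 SD. The cisplatin values lie at 0.982 to 1.16 below the PBS values of 1.17 to 1.48 on the left, and at 40.6% to 45.4% below 47.2% to 48.9% on the right.

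HSPB1 (chromosome 7, 76302544 to 76304295), known as HSP27, is a small heat shock protein that holds unfolded clients without ATP. It had 17.8, 20.1 and 15.6 CPM under PBS and 26.2, 24.5 and 33.6 CPM under cisplatin, from 159 to 305 and from 263 to 560 counts per library. The third cisplatin library was the highest, and no cisplatin library was as low as the highest PBS library. The log2 fold change was 0.67 ± 0.14 (95% interval 0.37 to 0.96, edgeR adjusted p = 0.00247). Every alternative called it, but the size ranged from 0.43 with the transcript length correction (adjusted p = 0.0104) to 0.78 with 1 library left out.

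Changes across all genes moved with transcript length. The median log2 fold change was 0.20 among the shortest of 5 equal groups of tested genes (153 to 1382 bases), where HSPB1 and HSPE1 lie, and 0.01 in the middle group (2017 to 2774 bases), which holds HSPA1A, HSPA1B, HSPA8, HSPD1 and DNAJB1. It was 0.10 in the group with HSF1, -0.09 in that with HSPH1 and HSP90AA1, and -0.24 in the longest. With a length trend removed in each library, HSPA1A (-0.41), HSPA1B (-0.67), HSPD1 (-0.35) and HSPB1 (0.43) were still called. HSPE1 became lower and HSPH1 was no longer called, so the count was again 4 lower and 1 higher, beside 16.9% lower, 17.1% higher and 34.0% in either direction over all genes.

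**Figure D4:**
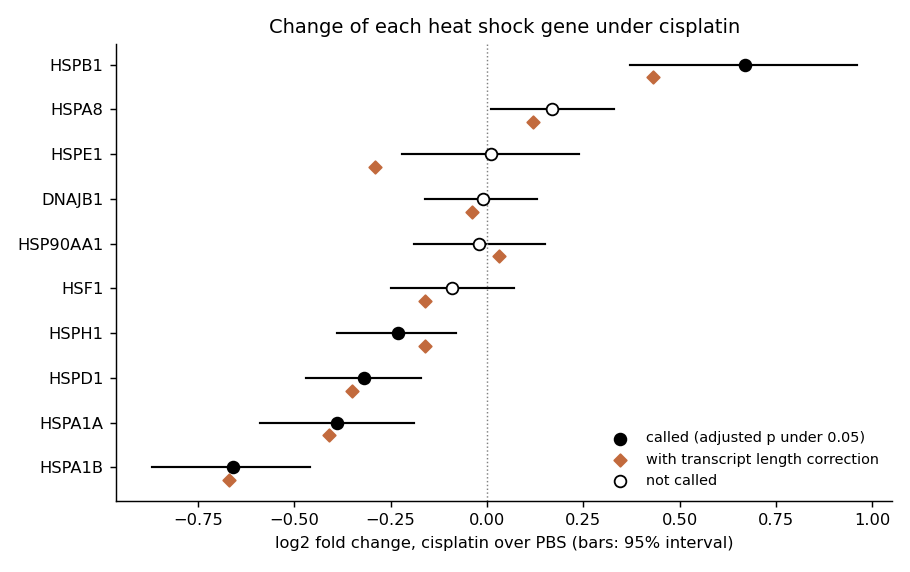
Log2 fold change of each heat shock gene, cisplatin over PBS, with bars for the 95% interval and filled circles for genes called by edgeR. Diamonds give the value after the transcript length correction, which lies close to the uncorrected one for HSPA1A, HSPA1B and HSPD1 and moves to -0.29 for HSPE1 and 0.43 for HSPB1.

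Among the other heat shock factors, HSF4, which acts mainly in the lens, rose by 1.05 ± 0.11 on the log2 scale (edgeR adjusted p = 3.8e-05), from 19.3, 16 and 17.4 CPM to 34.6, 32.9 and 40.3 CPM. A same-strand gene model covers 31.4% of its exonic bases and also rose (0.68), so the value is less certain. HSF2 (-0.02) was not called, its sign turned with some libraries left out (up to 0.02), and HSF5 was at 0 in every library. Of 7 regulators of HSF1, 1 was higher and 2 were lower. HSBP1, which binds HSF1 trimers, rose by 0.34. The acetyltransferase EP300 fell by 0.83 and the kinase GSK3B by 0.33, both of which modify HSF1. With the length correction EP300 fell by 0.54. Limma on TPM called EP300 but neither HSBP1 (adjusted p = 0.0628) nor GSK3B (0.172).

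Of 22 other genes known as HSF1 targets, 21 were tested, 3 were higher and 5 lower, with a median of -0.03. Over all tested genes 18.9% were higher and 19.3% lower. The collagen chaperone SERPINH1 (HSP47) rose by 0.74 ± 0.07 (edgeR adjusted p = 2.0e-05), from 88.0, 87.5 and 92.9 CPM to 152, 149 and 146 CPM. The collagen gene COL1A1 of the fibroblast markers also rose, from 12.7 to 22.3 mean CPM, with COL3A1 at 0, and its part in the SERPINH1 value was not tested. CRYAB, the small heat shock protein alpha-B-crystallin, rose by 1.41 from 2.05 CPM, and a gene model on the opposite strand covers 18.1% of its exonic bases. The HSP90 partner FKBP4, an immunophilin, fell by 0.44 ± 0.07 (edgeR adjusted p = 5.4e-04), and the HSP110 relative HSPA4L fell by 0.63. The ubiquitin gene UBB rose by 0.51, or 0.30 with the length correction. HSPA4 fell by 0.35, and the co-chaperones CHORDC1 and STIP1 fell by 0.53 and 0.22. UBB, HSPA4, CHORDC1 and STIP1 complete the count of this list and, apart from HSPA4, were named after their values were seen. CHORDC1 lost its call with an adjusted p of 0.0679 when PBS replicate 2 was left out, 0.0813 for cisplatin replicate 1 and 0.0725 for cisplatin replicate 3. For STIP1 the adjusted p was 0.104 when PBS replicate 1 was left out and 0.113, 0.0821 and 0.0797 for cisplatin replicates 1, 2 and 3.

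Of 10 other HSP70 and HSP110 genes tested, 5 were lower and 0 higher, beside 19.3% and 18.9% of all tested genes. Their median was -0.25. HSPA4L and HSPA4 fell as given above, though HSPA4 was not called on TPM (-0.15, adjusted p = 0.363). HSPA9, the mitochondrial HSP70, fell by 0.28 (-0.47 on TPM), HSPA14 of the ribosome-associated complex by 0.41 and HSPA5, the endoplasmic reticulum HSP70 called BiP, by 0.26, these 3 named after their values were seen. HSPA5 lost its call with cisplatin replicate 2 left out (adjusted p = 0.0685) and with replicate 3 left out (0.0566). In the HSP90 family, the mitochondrial TRAP1 fell by 0.37 ± 0.07 (edgeR adjusted p = 0.00177), while DNASE1 on the opposite strand, which covers 29.3% of its exonic bases, rose by 0.59. For the constitutive cytosolic HSP90AB1 the value was -0.20 with an edgeR adjusted p of 0.0555, and HSP90B1 of the endoplasmic reticulum had 0.07. HSP90AB1 passed without PBS replicate 3 (-0.22, adjusted p = 0.0266), with DESeq2 (0.0266), limma-voom (0.0291), limma on TPM (0.0414) and the length correction (0.0319).

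Among 39 J-domain genes 5 were higher and 7 lower, beside 18.9% and 19.3% of all tested genes. The median was -0.09. DNAJC30, a mitochondrial protein, rose by 0.87 and DNAJB2 by 0.42. The endosomal DNAJC13 fell by 0.68 (-0.36 with the length correction). DNAJB2 was not called on TPM (0.25, adjusted p = 0.152). The other 3 that rose, named after their values were seen, were DNAJC18 (0.52), HSCB (0.41) and DNAJC8 (0.26), and DNAJC18 had -0.08 on TPM. DNAJC8 lost its call with any of PBS replicate 3 (adjusted p = 0.0895), cisplatin replicate 2 (0.0995) and cisplatin replicate 3 (0.0535) left out. Without cisplatin replicate 2, 7 J-domain genes were called in place of 12.

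Of the 8 subunits of the cytosolic chaperonin TRiC, 3 were lower and 0 higher, beside 19.3% and 18.9% of all tested genes. Their median was -0.14. TCP1 fell by 0.26, CCT6A by 0.27 (not called on TPM, adjusted p = 0.105) and CCT5, named after its value was seen, by 0.26. Without cisplatin replicate 3, TCP1 (adjusted p = 0.0605) and CCT5 (0.0830) were lost and 1 of the 8 was called, and with the length correction 5 were. Of 24 co-chaperones of HSP70 and HSP90, 2 were higher and 8 lower, with a median of -0.06. CDC37, which brings kinases to HSP90, rose by 0.37 and SIL1, the exchange factor of BiP, by 0.34. FKBP4 fell by 0.44 and the HSP70 exchange factor BAG5 by 0.37. In all, 10 genes of this list were called, 5 without cisplatin replicate 1 and 6 without cisplatin replicate 3. SIL1 lost its call with PBS replicate 3 left out (adjusted p = 0.0586) and with cisplatin replicate 3 left out (0.0685), with the length correction (0.21, 0.0746) and on TPM (0.0975). BAG5 was not called with the length correction (-0.19, adjusted p = 0.0604), nor CDC37 on TPM (0.27, 0.0605).

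Mitochondrial chaperones and proteases, the list closest to HSPD1 and HSPE1, gave 6 of 13 lower and 2 higher, with a median of -0.21. TRAP1 fell by 0.37 and the inner membrane protease subunit AFG3L2 by 0.32. The protease HTRA2 rose by 0.35 and HSCB, of iron-sulfur cluster assembly, by 0.41, a value that lost its call in 10 of 16 alternatives (edgeR adjusted p = 0.0465, up to 0.289). On TPM neither AFG3L2 (adjusted p = 0.0663) nor HTRA2 (0.0706) was called, and HTRA2 was 0.23 with the length correction. CHEK2 on the opposite strand covers 20.6% of the exonic bases of HSCB and rose by 0.62. Of this list 8 genes were called, and 5 without cisplatin replicate 1 or without cisplatin replicate 2. Of the 7 small heat shock protein genes other than HSPB1 and CRYAB, HSPB3 and CRYAA were at 0 in every library, and none of the 7 passed the filter. HSPB8 had 2 to 16 counts and HSPB6 1 to 10 counts per library. The lists share genes with each other. For each list the share over all tested genes is 38.2% in either direction, 18.9% higher and 19.3% lower.

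**Figure D5:**
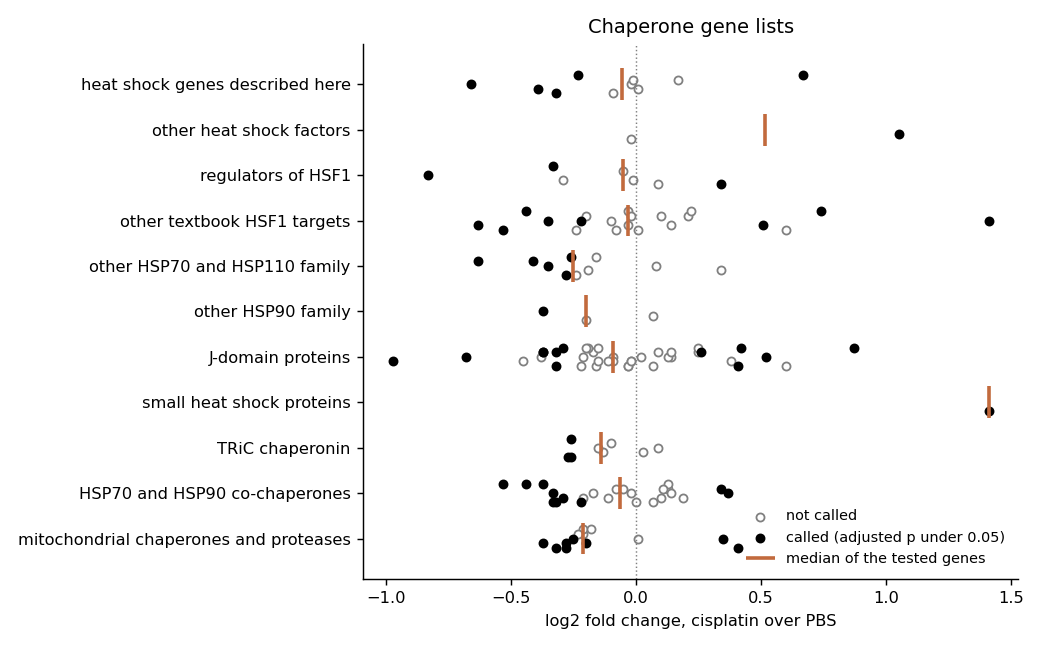
Log2 fold change, cisplatin over PBS, of each tested gene in the heat shock group and in 10 lists of related chaperone genes, with filled points for genes called by edgeR and a vertical bar at the median of each list. The medians lie at -0.25 for the other HSP70 and HSP110 genes and -0.21 for the mitochondrial list, and the heat shock group of 10 has 1 point called to the right of 0 and 4 to the left.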

How the data were processed

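RNA of 6 NCI-H520 samples (1.5 µg total RNA each, TRIzol, ABclonal kit, per the labels) was sequenced. The authors deposited, per the file headers, expected counts per gene, which are not normalized and need not be whole, TPM values, and transcript lengths in bases, under column names as RSEM writes them. Alignment used STAR 2.7.9 and GRCh38 (hg38), per the submitters' processing notes. The quantifier's version, annotation release and strand setting (not given in the sources used here) are unknown, so overlapping genes on opposite strands cannot be told apart.

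Symbols matched 61399 of 61552 gene identifiers. Rounded expected counts entered edgeR 4.0.16 (R 4.3.3) with filterByExpr (minimum count 10, total 15), scaled by TMM, and the quasi-likelihood test compared the groups with no covariate. Genes were called at a Benjamini-Hochberg adjusted p under 0.05 over 15063 genes. The square root of F gave each standard error from the log2 fold change. Alternatives used DESeq2 1.42.0, limma 3.58.1 (voom, or log2(TPM + 1)), other scalings and filters, the replicate number as a block, a lowess trend on log2 transcript length (span 0.3) as an offset, and each library left out. On simulated data with 200 changed genes of 15063, the fit recovered 62.5% of 1.5-fold, 83% of 2-fold and 97.9% of 4-fold changes. Of its calls there, 3.8% were false. Far more genes were called in the real data, so these shares do not carry over to them.

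The members and lists were chosen with earlier results of these data known. Named genes were all 10 members, per list up to 2 called genes each way, by smallest adjusted p (or the 2 most abundant where none was called), and the gene most correlated with each member. Genes named to complete a count, the genes given as not called or not tested, overlapping genes and COL1A1 were named after their values were seen. A gene that the rule names is not reported here. No library pair held the same counts (chi-square per degree of freedom 2.93 to 20.9 within groups). Positions and exon overlaps are from GENCODE 29.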

Additional observations from a re-analysis of the deposited data

How the results depend on the processing

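Of the 10 heat shock genes, HSPA1A, HSPA1B, HSPD1 and HSPB1 kept their call and sign under all 16 alternatives, as did the HSPA1A and HSPA1B sum (-0.61 to -0.45), and 4 to 6 genes were called. DESeq2 and limma-voom called 2 higher, adding HSPA8. Among these 10, signs reversed only for genes whose main change was near 0. HSPE1 turned with TPM (-0.14) and with 1 library left out (-0.10 to 0.12). With the length correction HSPE1 was called lower (-0.29, edgeR adjusted p = 0.0130). HSP90AA1 turned with the length correction (0.03) and ran from -0.07 to 0.04 with 1 library left out. DNAJB1 turned with upper quartile scaling (0.01), total counts (0.01) and at least 50 counts in 3 libraries (0.00). With 1 library left out DNAJB1 ran from -0.02 to 0.02. The cause was not tested.

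Limma on TPM called 2861 genes, 1208 higher and 1653 lower, in place of 5752, 2851 and 2901. It called 1 regulator of HSF1 in place of 3, 5 J-domain genes in place of 12 and 3 mitochondrial genes in place of 8. On TPM the sign also turned for DNAJC18 (-0.08), RFC4 (-0.12) and METTL4 (0.01), and with the length correction for RFC4 (-0.17) and ZGRF1 (0.01). In the HSP90 family 2 genes in place of 1 were called with DESeq2, limma-voom, TPM and the length correction. TRiC gave 5 in place of 3 with the length correction, and the filter of 50 counts left 0 other small heat shock proteins tested. The 10 genes' share of expression differed by -0.036 percentage points on TPM and by -0.0417 to -0.0245 over its alternatives, and the HSPD1 to HSPE1 ratio on CPM, which is on a larger scale (10.2 to 13.6 under PBS, 8.67 to 10.1 under cisplatin), differed by -2.51.

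With 1 library left out, the calls ran from 4205 to 5283 over all genes, from 1 to 2 in the HSP90 family, 7 to 11 among J-domain proteins, 1 to 3 in TRiC, 5 to 8 among co-chaperones and 5 to 9 in the mitochondrial list. The range was -0.04 to 0.05 for RFC4, -0.14 to 0.08 for ZGRF1, -0.18 to 0.04 for METTL4 and -0.11 to 0.02 for HSF2.

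Same-numbered PBS and cisplatin libraries had correlations of 0.0658, 0.123 and -0.076 between their deviations from the group means. The other pairs ran from -0.188 to 0.13. With 3 libraries per group these values cannot decide whether the numbers pair the samples, and the labels do not say. With the replicate block 5819 genes were called in place of 5752 and 5 heat shock genes in either fit, and the HSPA1A and HSPA1B sum was -0.51. Low counts limit HSPB1 most, with 159 to 560 per library.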

Other observations

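For each heat shock gene, the gene whose log2 CPM followed it most closely over the 6 libraries was sought among 9599 other genes whose mean reached 10 CPM. These correlations are descriptions over 6 points that share the group contrast, the library depths and the scaling. HSPA1A was closest to POLRMT (Pearson r = 0.998), the mitochondrial RNA polymerase, and HSPA1B to SREBF2 (0.999), a regulator of sterol synthesis. HSPD1 was closest to ZBED6 (0.998), 96.0% of whose exonic bases are shared with ZC3H11A, and HSPH1 to the RNA helicase DDX10 (0.997). HSPB1 was closest to BCL2L12 (0.999), of which 33.1% of exonic bases are shared with IRF3 on the opposite strand. HSPA8 was closest to OSER1 (0.997), HSF1 to IRF2BP1 (0.989), HSP90AA1 to ZGRF1 (0.987), DNAJB1 to METTL4 (0.986) and HSPE1 to the replication factor subunit RFC4 (0.976). POLRMT (-0.43), SREBF2 (-0.48), DDX10 (-0.40) and ZBED6 (-1.38) were lower and OSER1 (0.83) and BCL2L12 (0.41) higher under cisplatin in edgeR, while IRF2BP1, RFC4, ZGRF1 and METTL4 were not called. BCL2L12 lost its call with the length correction (0.21, adjusted p = 0.0898), on TPM (0.27, 0.0930) and without cisplatin replicate 3 (0.30, 0.0507), and DDX10 on TPM (-0.15, 0.374). With the length correction SREBF2 was -0.28 and ZBED6 -0.92.

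Pseudogenes named after the heat shock genes drew few counts. The 17 listed for HSPA8 held 0 to 4 counts per library, the 18 for HSPD1 20 to 50.01, and the 26 for HSPE1 0 to 2. Pseudogenes were matched by name for HSPA8, HSPD1, HSPE1, DNAJB1 and HSPB1, and for these 5 genes they came to at most 1.34% of the gene's own count in a library. For the other 5 genes none was matched by name and none was counted, including HSP90AA2P, whose transcripts hold 1.2% of the 100-base windows of HSP90AA1.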
